A study of Mus musculus with 8 samples.

Results

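The 28 genes described here carry fatty acids into the liver cell and break them down in mitochondria to acetyl-CoA and ketone bodies, and they were compared between CAPZ_KO and WT mouse livers. They were chosen by symbol from a list of pathway genes, with earlier results of these data known. All 28 were found among the 24421 symbols of the count table and passed the filter on low counts that left 12985 genes for testing. CAPZ_KO animals carried Albumin-CreERT2 and Capzb-fl/fl and had been injected with tamoxifen. WT animals were Capzb-fl/fl with tamoxifen, or carried Albumin-CreERT2 and Capzb-fl/fl without an injection. All animals therefore carried floxed alleles of Capzb, which encodes an actin filament capping subunit. They were C57BL/6N adults of 8 to 10 weeks, and tamoxifen was begun at 4 to 6 weeks of age in daily injections. Cre was driven by the albumin promoter, which is active in hepatocytes, so the other cells of the liver keep the gene. Which of the WT libraries had been injected is not labelled, so exposure to tamoxifen, the presence of Cre and the deletion cannot be told apart. They do not state that each of the 4 libraries per group came from a separate animal, and p-values then measure the spread between these libraries.

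Long-chain fatty acids enter the hepatocyte with the help of membrane and cytosolic carriers, are activated to acyl-CoA by synthetases, and cross the inner mitochondrial membrane as carnitine esters. In the matrix each turn of beta-oxidation runs through a dehydrogenase, a hydratase, a second dehydrogenase and a thiolase, and the electrons of the first step leave through the electron transfer flavoprotein. In the fasted liver much of the acetyl-CoA is turned into ketone bodies for other organs. Of ketone body metabolism the 28 genes hold only Bdh1 and Acat1.

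Poly(A) RNA of perfused liver was sequenced, and the values are read counts per gene. Total counts were 13122355 to 16984971 in CAPZ_KO libraries and 12060350 to 18916315 in WT libraries. Levels are given in CPM, the reads of a gene relative to the size of its library, and library sizes were adjusted by TMM, with factors of 1.18 to 1.33 in CAPZ_KO and 0.774 to 0.847 in WT. A gene was called at an adjusted p under 0.05 by the edgeR quasi-likelihood test, with Benjamini-Hochberg adjustment over all 12985 genes. Capzb averaged 72.5 ± 6.80 CPM in CAPZ_KO and 120.2 ± 13.4 CPM in WT (SD, n = 4 each), with a log2 fold change of −0.73 and an edgeR adjusted p of 0.00134. CAPZ_KO replicate 4 and WT replicate 4 held 4067 and 5419 reads of Xist, the RNA of the inactive X chromosome, and 0 reads of Y-linked genes. The other 3 libraries of each group held at most 6 Xist reads and 942 to 2885 Y-linked reads. Sex is not labelled, and the libraries with Xist are called female here and the other 3 of each group male. Values without the female pair are given where they differ.

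The pathway was lower in CAPZ_KO livers at nearly every step. By edgeR, 24 of the 28 genes fell, 0 rose, and 4 did not pass the test, which were Cd36, Acot2, Acadm and Acad10. Of all genes tested, 19.0% fell and 22.4% rose. The median log2 fold change of the 28 genes was −0.95, and that of all genes tested was −0.0029. In 22 of the 28 genes every CAPZ_KO library lay below every WT library, a pattern shown by 18.2% of all genes tested, and in 0 did every CAPZ_KO library lie above every WT library, as 22.1% of all genes did. Together the 28 genes made up 5110 to 5729 CPM in CAPZ_KO libraries and 14608 to 19098 CPM in WT libraries. Without Fabp1, the largest single contributor in WT, the sum in CAPZ_KO was 45.6% of that in WT. In bulk liver, fewer hepatocytes and less RNA of these genes per hepatocyte cannot be told apart. Scaled to library size alone, without TMM, the median of all genes tested moved to 0.62. With that scaling 11 of the 28 fell and 1 rose, and Acsl5, Acadm and Acad10 turned to values just above 0. The median of the 28 genes lay 0.95 below that of all genes with either scaling. A change of scaling shifts all genes by nearly the same amount, so this distance could hardly move and does not test the scaling.

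**Figure D1:**
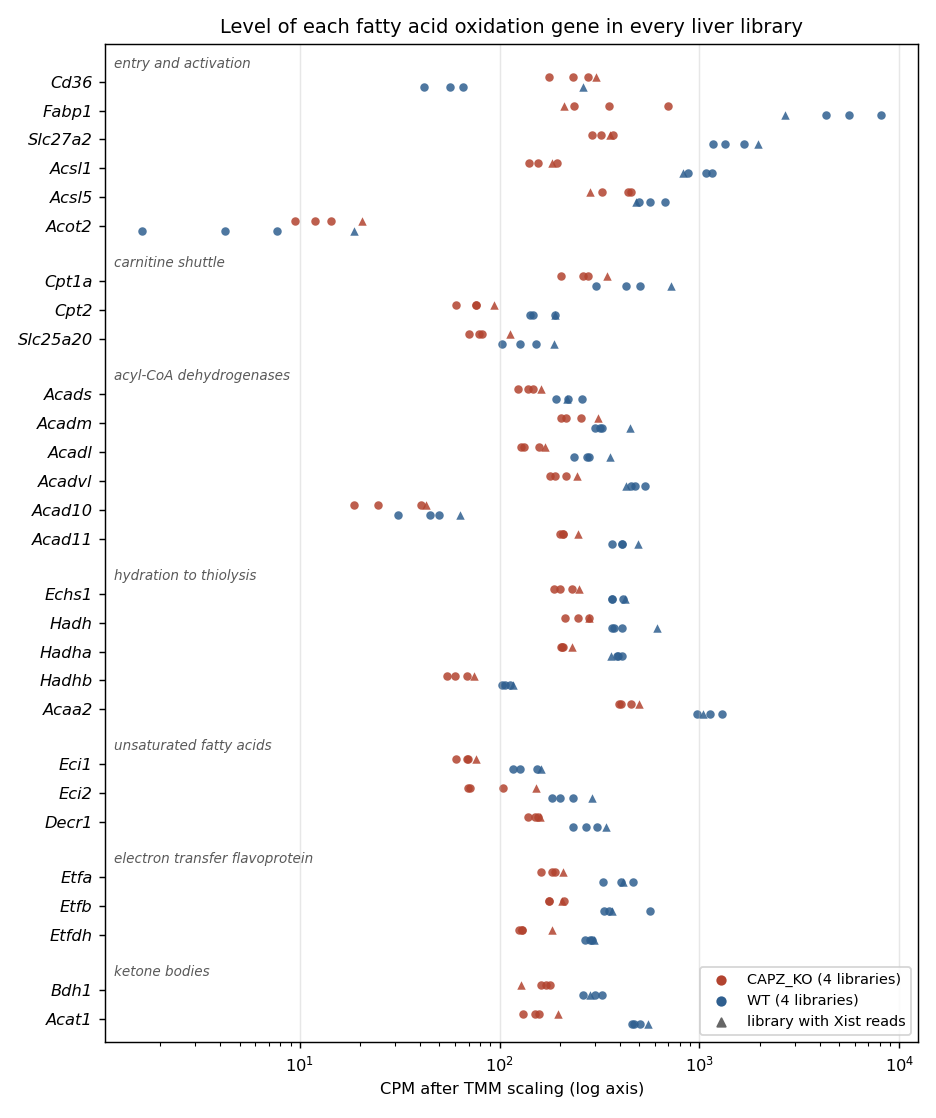
Level of each of the 28 genes in the 4 CAPZ_KO (red) and 4 WT (blue) libraries, in CPM after TMM scaling on a log axis, grouped by role; triangles mark the libraries with Xist reads. The red points lie left of the blue points without overlap in 22 of the 28 genes, and Fabp1 shows the widest gap; with library sizes alone in place of TMM, Acsl5, Acadm and Acad10 turn to values just above 0 in log2 fold change.

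Levels spanned a wide range, with Acot2 and Acad10 lowest in both groups. Levels per kilobase use all annotated exon bases of a gene, not the length of 1 transcript, so ranks between genes are approximate. Per kilobase of exon, Fabp1 ranked first of the 28 in both groups, at 677 CPM per kb in CAPZ_KO and 9378 CPM per kb in WT, and Acaa2 ranked second, at 289.5 CPM per kb in CAPZ_KO and 734 CPM per kb in WT. Across the 28 genes the level per kilobase in CAPZ_KO followed that in WT with a Spearman rho of 0.869, given as a description since the genes come from the same libraries. Acsl1 left this order, at rank 25 in CAPZ_KO and rank 11 in WT. Cd36 moved the other way, at rank 9 in CAPZ_KO and rank 24 in WT.

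**Figure D2:**
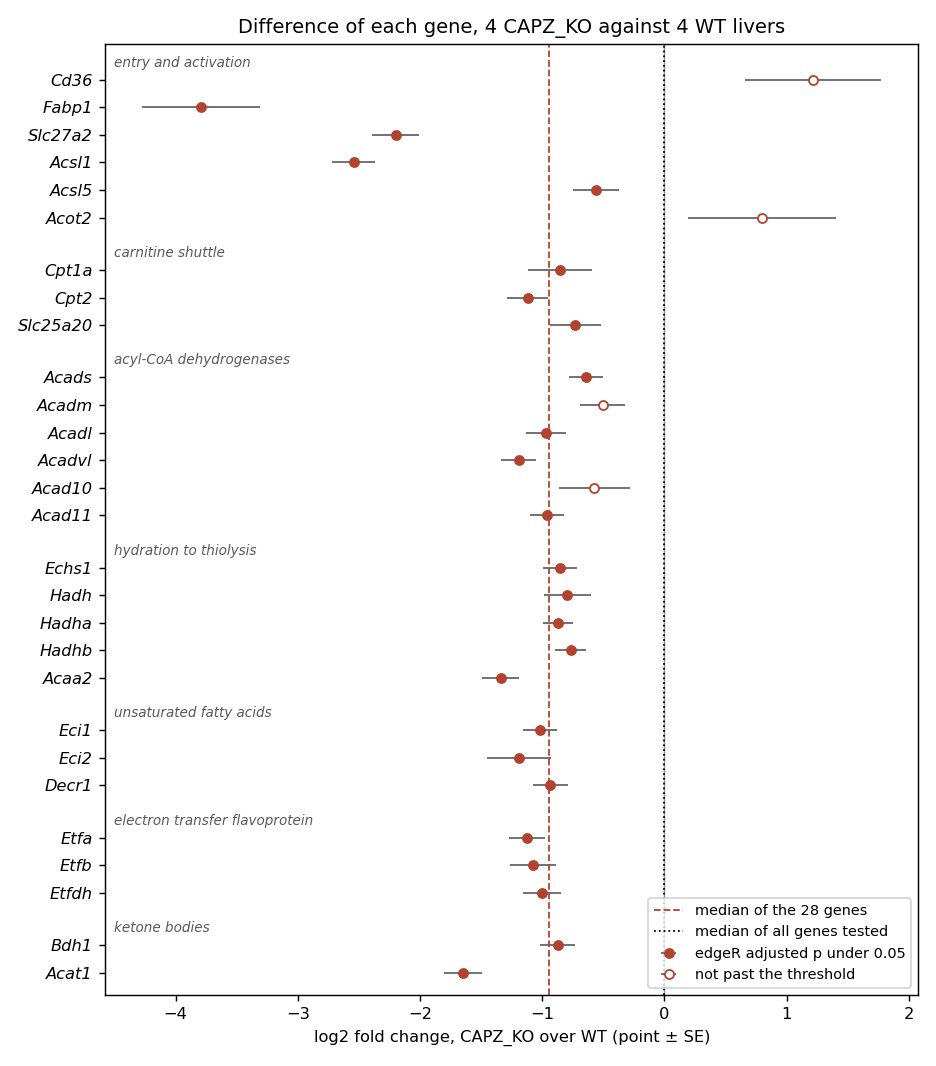
Log2 fold change of each gene, CAPZ_KO over WT, with its standard error, from the edgeR fit to 4 CAPZ_KO and 4 WT libraries; filled points passed an adjusted p of 0.05, and the lines mark the medians of the 28 genes and of all genes tested. Most points lie between −0.5 and −1.4 with Fabp1, Acsl1 and Slc27a2 beyond −2, and Cd36 and Acot2 lie above 0 with wide errors; with library sizes alone in place of TMM, Acsl5, Acadm and Acad10 turn to 0.081, 0.11 and 0.025.

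The carriers and synthetases that bring fatty acids into the cell and activate them differed most among themselves. Of these 6 genes 4 fell, and the median over the 6 was −1.38 on the log2 scale. Fabp1, the abundant cytosolic fatty acid-binding protein of liver (chr6:71199827-71205023, plus strand, GRCm38), held 698, 236, 353 and 211 CPM in the CAPZ_KO libraries, against 8154, 4295, 5606 and 2689 CPM in the WT libraries. The groups were far apart, and the lowest WT library lay above the highest CAPZ_KO library although the female library was the lowest of each group. The CAPZ_KO mean was 7.22% of the WT mean, and the log2 fold change was −3.79 ± 0.481 (SE, with adjusted p = 0.000299 by edgeR).

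The promoter window of Fabp1 from RefSeq is shown because this gene had the largest fall of the 28 and because the nuclear receptor PPARα, a regulator of fatty acid oxidation genes, binds direct repeats known as DR1, 2 copies of AGGTCA with 1 base between them. The window covers chr6:71199629-71199928 on the plus strand of GRCm38.p6, 250 bases before to 50 bases after the RefSeq start. The capitals mark a match, read on the minus strand, to a relaxed DR1 in which both copies may be AGGNCA, 67 to 55 bases before the start.
Fabp1 promoter: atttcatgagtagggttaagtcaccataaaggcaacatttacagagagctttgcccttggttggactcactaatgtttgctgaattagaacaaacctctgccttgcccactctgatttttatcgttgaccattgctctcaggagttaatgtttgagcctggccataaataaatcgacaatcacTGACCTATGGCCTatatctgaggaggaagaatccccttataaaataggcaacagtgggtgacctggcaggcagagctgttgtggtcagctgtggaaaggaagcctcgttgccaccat
The relaxed repeat, looked for on both strands, was found in 0.381% of all 32851 mouse promoter windows and in 1 of 27 windows of the 28 genes, the one shown. The strict DR1 was found in 0.0396% of all windows, and TCAAGGTCA, the extended half-site bound by estrogen-related receptors, in 0.423%. Neither was found in the 27 windows, which belong to 25 of the 28 genes. These matches are of letters in a short window and were not tested for binding.

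Slc27a2, a fatty acid transporter that also activates very long-chain fatty acids, held 289.7, 368, 323 and 359 CPM in CAPZ_KO libraries, against 1176, 1668, 1348 and 1958 CPM in WT libraries. Acsl1, the main long-chain acyl-CoA synthetase of liver, held 195, 141, 156 and 183 CPM in CAPZ_KO and 1081, 1151, 877 and 824 CPM in WT. Both fell with wide gaps between the groups, by 2.20 ± 0.192 and 2.54 ± 0.178 on the log2 scale (SE, with adjusted p = 3.65e-05 and 1.14e-05 by edgeR). Acsl5, another long-chain acyl-CoA synthetase, held 440.3, 325, 452 and 285 CPM in CAPZ_KO and 677, 498, 563 and 480.0 CPM in WT. The highest CAPZ_KO library came close to the lowest WT library, and the log2 fold change was −0.56 ± 0.191 (SE, with adjusted p = 0.0381 by edgeR). Without the female pair it was −0.52, with an edgeR adjusted p of 0.0683. In CAPZ_KO Acsl5 thus stood above Acsl1 in count, while in WT it stood below.

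Cd36, a scavenger receptor of the plasma membrane that takes up long-chain fatty acids (chr5:17781690-17888801, minus strand), held 178, 233, 277 and 306 CPM in CAPZ_KO libraries, against 56.6, 65.7, 41.8 and 263 CPM in WT libraries. The 3 male WT libraries lay well below all CAPZ_KO libraries, and the female WT library lay among them. With all 8 libraries the log2 fold change was 1.22 ± 0.558 (SE) and did not pass the test (edgeR adjusted p = 0.111). Acot2, a matrix thioesterase that splits acyl-CoA back to free fatty acid and lies in a cluster of near-identical genes, held 14.4, 12, 9.49 and 20.4 CPM in CAPZ_KO, against 7.72, 4.21, 1.63 and 18.7 CPM in WT. Its female WT library again stood apart from the male ones, the log2 fold change was 0.80 ± 0.604 (SE, with adjusted p = 0.318 by edgeR), and the division of reads between it and its copies is uncertain.

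**Figure D3:**
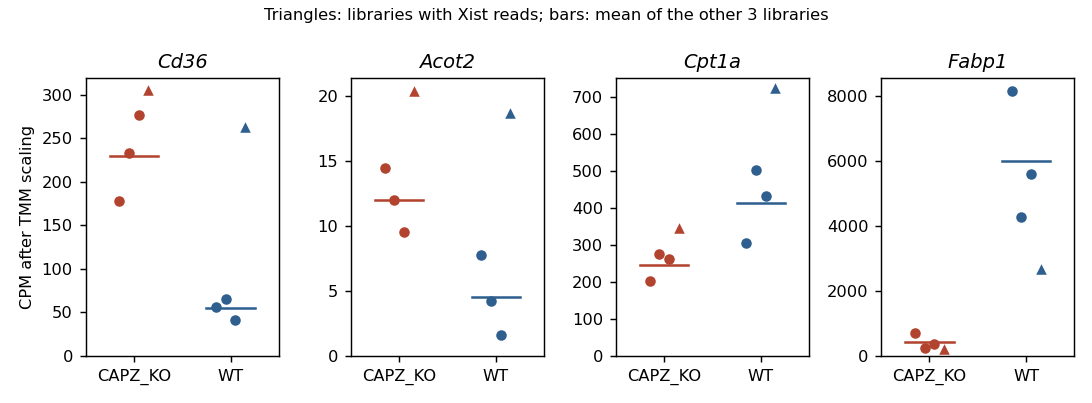
Level of Cd36, Acot2, Cpt1a and Fabp1 in CPM after TMM scaling in each CAPZ_KO and WT library; triangles are the libraries with Xist reads and bars the mean of the other 3 libraries of the group. For Cd36 the female WT library reaches 263 CPM while the male WT libraries stay at or below 65.7 CPM, and for Fabp1 the female library is the lowest of both groups.

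With 1 library left out at a time, Cd36 and Acot2 were called only without WT replicate 4, which held their highest WT values. Among the 3 male libraries of each group, which leave those values out, both rose. Cd36 averaged 228 ± 49.8 CPM in CAPZ_KO and 54.6 ± 12 CPM in WT (SD, n = 3 each), with a log2 fold change of 2.06 ± 0.229 and an edgeR adjusted p of 0.000241. Acot2 averaged 11.9 ± 2.44 CPM in CAPZ_KO and 4.52 ± 3.05 CPM in WT (SD, n = 3 each), with a log2 fold change of 1.43 ± 0.465 and an edgeR adjusted p of 0.0421. In this comparison 24 of the 28 genes fell and 2 rose, against 16.1% and 21.0% of all genes tested. Acadm was added to those that fell (adjusted p = 0.0358) and Acsl5 dropped out. The difference between the sexes in the CAPZ_KO effect, tested as an interaction in edgeR after the data had been seen, was −1.85 on the log2 scale for Cd36, female minus male, with an unadjusted p of 0.00252 and an edgeR adjusted p of 0.735. That fit assumes that the lone female library of a group varies like the males. By this test 0 of 12985 genes passed and 537 had an unadjusted p under 0.05, and with 1 female library per group a sex difference cannot be told apart from a difference of that animal.

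In CAPZ_KO the female library lay above all 3 male libraries in 21 of the 28 genes, and in WT in 18, against 26.8% and 30.03% of all 12985 genes tested. In 16 of the 28 genes and in 11.4% of all genes this held in both groups. Among the 16 were Cpt1a, Eci2, Slc25a20, Acadm and Acat1. Fabp1 and Acsl5 were lowest in the female library of both groups.

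All 3 genes of the carnitine shuttle fell. Cpt1a, the outer-membrane carnitine palmitoyltransferase whose inhibition by malonyl-CoA sets the entry of long-chain acyl groups, held 202, 276, 261 and 345 CPM in CAPZ_KO libraries, against 304, 503, 432 and 723 CPM in WT libraries. The female CAPZ_KO library overlapped the lowest WT library, and the log2 fold change was −0.86 ± 0.260 (SE, with adjusted p = 0.0236 by edgeR). Without CAPZ_KO replicate 1 the edgeR adjusted p was 0.0509. Cpt2, the inner-membrane transferase that returns the acyl group to CoA, held 76.6, 60.5, 76.5 and 93.6 CPM in CAPZ_KO, against 189, 142, 147 and 189.6 CPM in WT. Its groups did not overlap, and it fell by 1.12 ± 0.165 on the log2 scale (SE, with adjusted p = 0.000556 by edgeR). Slc25a20, the carrier that exchanges acylcarnitine for carnitine, held 70.4, 78.8, 81.3 and 113 CPM in CAPZ_KO and 153, 127, 103 and 187 CPM in WT. Here too the female CAPZ_KO library overlapped the lowest WT library, with a log2 fold change of −0.73 ± 0.208 (SE, with adjusted p = 0.0178 by edgeR).

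Acyl-CoA dehydrogenases open each turn of beta-oxidation and differ in the chain length they accept. Of the 6 genes 4 fell and all had a log2 fold change below 0, with a median of −0.80, although Acadm and Acad10 turned above 0 when scaled to library size alone. Acadvl, which takes very long chains, held 189.7, 215, 179.7 and 243 CPM in CAPZ_KO libraries, against 533, 454, 477 and 429.6 CPM in WT libraries. The gap between the groups was wide, with a log2 fold change of −1.19 ± 0.146 (SE, with adjusted p = 0.0002 by edgeR). Its exons share 42.9% of their bases with Dvl2 on the opposite strand, so reads of Dvl2 may be included if strand was not used in counting. Acadl, for long chains, fell to 127 to 169 CPM in CAPZ_KO, against 237 to 357 CPM in WT, a log2 fold change of −0.97 ± 0.163 (SE, with adjusted p = 0.00116 by edgeR). Acads, for short chains, fell to 124 to 161 CPM in CAPZ_KO, against 193 to 259 CPM in WT, a log2 fold change of −0.64 ± 0.139 (SE, with adjusted p = 0.00449 by edgeR). Acad11, a more distant member of the family, fell to 200.2 to 248 CPM in CAPZ_KO, against 367 to 494 CPM in WT, a log2 fold change of −0.96 (edgeR adjusted p = 0.000562).

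Acadm, for medium chains, was the member of this family closest to the threshold. It held 202, 254, 215 and 309.7 CPM in CAPZ_KO libraries, against 325, 299.9, 318 and 448 CPM in WT libraries. The female CAPZ_KO library lay just above the lowest WT library, and the log2 fold change of −0.50 ± 0.185 (SE) had an edgeR adjusted p of 0.0504. Acad10, also a distant member and little expressed, held 18.8, 40.6, 24.6 and 42.8 CPM in CAPZ_KO and 49.7, 45.0, 31.0 and 63.1 CPM in WT. Its groups overlapped, with a log2 fold change of −0.57 ± 0.290 (SE, with adjusted p = 0.139 by edgeR).

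The 5 genes of the remaining steps of the cycle, from hydration to thiolysis, all fell, and in each the groups lay apart. Echs1, the short-chain enoyl-CoA hydratase, fell to 188 to 250.2 CPM in CAPZ_KO, against 364 to 425 CPM in WT. Hadh, the medium- and short-chain hydroxyacyl-CoA dehydrogenase, held 212, 247, 279 and 279 CPM in CAPZ_KO, against 409, 375, 367 and 615 CPM in WT. Their log2 fold changes were −0.85 and −0.80 (edgeR adjusted p = 0.00101 and 0.00808). Acaa2, the thiolase that releases acetyl-CoA, held 406, 457, 394 and 498 CPM in CAPZ_KO libraries, against 1301, 971, 1133 and 1044 CPM in WT libraries. It had the largest fall of these 5, with a log2 fold change of −1.34 ± 0.153 (SE, with adjusted p = 0.000141 by edgeR).

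Hadha and Hadhb encode the alpha and beta subunits of the mitochondrial trifunctional protein, which carries out these steps on long chains at the inner membrane. Hadha held 207, 204, 203 and 232 CPM in CAPZ_KO libraries, against 408, 391, 389 and 359 CPM in WT libraries. Hadhb held 54.3, 60.1, 68.6 and 74.2 CPM in CAPZ_KO, against 106, 113, 103 and 117 CPM in WT. Both subunits were lower in every CAPZ_KO library by a similar measure, with log2 fold changes of −0.87 ± 0.120 and −0.77 ± 0.127 (SE, with adjusted p = 0.000376 and 0.00104 by edgeR). The genes stand head to head on chromosome 5, Hadha on the minus and Hadhb on the plus strand, with 272 bases between their RefSeq starts. The Hadhb window of GRCm38.p6, chr5:30155003-30155302 on the plus strand, is shown because its promoter window overlaps that of Hadha. The capitals mark the 228 bases that both windows share.
Hadhb promoter: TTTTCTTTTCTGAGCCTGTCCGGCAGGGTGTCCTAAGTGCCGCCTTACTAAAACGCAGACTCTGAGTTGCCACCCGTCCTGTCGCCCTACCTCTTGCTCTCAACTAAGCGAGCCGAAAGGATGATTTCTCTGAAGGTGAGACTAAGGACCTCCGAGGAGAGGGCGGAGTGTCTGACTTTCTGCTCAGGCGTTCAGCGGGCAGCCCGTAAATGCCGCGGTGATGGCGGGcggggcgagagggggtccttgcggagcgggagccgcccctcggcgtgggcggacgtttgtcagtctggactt
No DR1, relaxed DR1 or TCAAGGTCA was found in this window.

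The auxiliary enzymes for unsaturated fatty acids, which move or reduce double bonds that the cycle cannot handle, all fell without overlap of the groups. Eci1, an enoyl-CoA isomerase of the matrix, fell to 60.8 to 76.0 CPM in CAPZ_KO, against 117 to 162 CPM in WT, a log2 fold change of −1.02 (edgeR adjusted p = 0.000367). Eci2, an isomerase found in mitochondria and peroxisomes, held 69.9, 104, 71.4 and 152 CPM in CAPZ_KO, against 233, 200.3, 183 and 291 CPM in WT. Its female library was the highest of each group, and the log2 fold change was −1.19 ± 0.261 (SE, with adjusted p = 0.00492 by edgeR). Decr1, the mitochondrial dienoyl-CoA reductase, fell to 139 to 159 CPM in CAPZ_KO, against 234 to 339.8 CPM in WT, a log2 fold change of −0.93 (edgeR adjusted p = 0.000692).

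The 3 genes that pass electrons from the dehydrogenases to the respiratory chain fell by almost the same measure. Etfa, the alpha subunit of the electron transfer flavoprotein, held 182, 189, 162 and 208 CPM in CAPZ_KO libraries, against 464, 331, 405 and 414 CPM in WT libraries. Etfb, its beta subunit, held 177, 211, 178 and 205 CPM in CAPZ_KO, against 569, 332, 353 and 367 CPM in WT. Etfdh, the membrane oxidoreductase that takes the electrons on to ubiquinone, held 125, 129, 129.6 and 184 CPM in CAPZ_KO, against 289, 283, 268 and 297 CPM in WT. None of the 3 overlapped between the groups. Their log2 fold changes were −1.12, −1.07 and −1.0 (edgeR adjusted p = 0.000299, 0.00149 and 0.000652). Exons of Etfb share 53% of their bases with the gene model Gm45233 on the same strand, so its counts are uncertain to that extent.

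Both members of ketone body metabolism fell. Acat1, the mitochondrial thiolase that joins and splits acetoacetyl-CoA, held 131, 158, 151 and 196 CPM in CAPZ_KO libraries, against 507, 461, 470.3 and 553 CPM in WT libraries. The groups were far apart, with a log2 fold change of −1.65 ± 0.155 (SE, with adjusted p = 5.31e-05 by edgeR). Bdh1, which interconverts acetoacetate and beta-hydroxybutyrate, held 171, 162, 179.8 and 128 CPM in CAPZ_KO and 327, 301, 262 and 284 CPM in WT. With Fabp1 and Acsl5 it was 1 of 3 genes with the lowest CAPZ_KO value in the female library, and it fell by 0.87 ± 0.146 on the log2 scale (SE, with adjusted p = 0.0011 by edgeR).

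Ratios of 2 of these genes inside a library do not depend on how libraries are scaled, and 10 pairs were compared. They were isozymes, subunits, related or successive steps and, for Cd36 and Slc27a2, 2 different proteins of fatty acid uptake. Counts of Acsl5 per count of Acsl1 were 2.26, 2.31, 2.90 and 1.55 in CAPZ_KO libraries, against 0.626, 0.432, 0.642 and 0.583 in WT libraries. Counts of Cd36 per count of Slc27a2 were 0.614, 0.634, 0.858 and 0.852 in CAPZ_KO, against 0.0482, 0.0394, 0.0310 and 0.134 in WT. Neither ratio overlapped between the groups, the female libraries included. The mean log2 ratio was higher in CAPZ_KO by 1.97 for Acsl5 over Acsl1 and by 3.78 for Cd36 over Slc27a2. Acadl and Acadvl had less weight relative to Acadm in CAPZ_KO, with differences in log2 ratio of −0.46 and −0.69 and no overlap. For Acadvl over Acadm the gap was narrow, between 0.938 in CAPZ_KO replicate 1 and 0.959 in the female WT library. Both of these ratios share Acadm and are not independent. Each of these 4 pairs had p = 0.0286 by an exact two-sided permutation test, the smallest that 4 against 4 libraries can give. Adjusted over the 10 pairs, each of these exact permutation tests had p = 0.0714, so none passed.

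**Figure D4:**
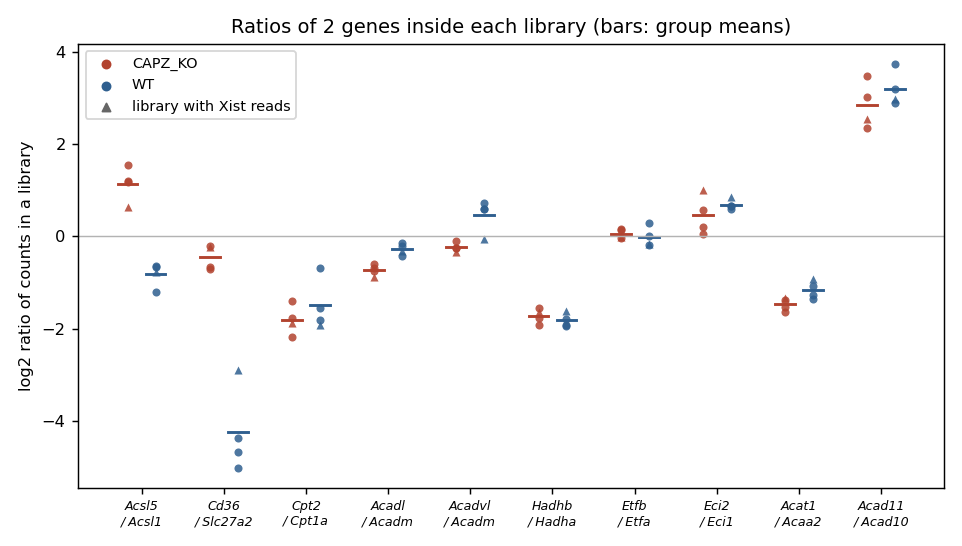
Log2 ratio of the counts of 2 genes in each library for 10 pairs, CAPZ_KO (red) left of WT (blue), with bars at the group means and triangles for the libraries with Xist reads. Acsl5 over Acsl1 and Cd36 over Slc27a2 are apart by 1.97 and 3.78, while the subunit pairs Hadhb over Hadha and Etfb over Etfa differ by 0.10 and 0.08.

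Subunits of 1 complex differed little in their ratio. Hadhb over Hadha differed between CAPZ_KO and WT by 0.10 in log2 ratio and Etfb over Etfa by 0.08 (exact two-sided permutation p = 0.4 and 0.657). Acat1 over Acaa2 differed by −0.32 (exact permutation p = 0.0571, adjusted p = 0.114). Cpt2 over Cpt1a, Eci2 over Eci1 and Acad11 over Acad10 had differences of −0.31, −0.23 and −0.35, with exact permutation p of 0.457, 0.314 and 0.286. With 4 libraries per group these p-values do not show that the ratios were alike.

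Markers of the hepatocyte, the cell in which most of these genes are active, were lower in CAPZ_KO in the same comparison. Of 18 marker genes 16 fell, the median of the 18 being −1.51 on the log2 scale, and their summed level was 55955 to 79973 CPM in CAPZ_KO and 206187 to 251816 CPM in WT. The 28 fatty acid oxidation genes had 6.41 to 9.23 counts per 100 hepatocyte marker counts in CAPZ_KO libraries and 5.82 to 8.57 in WT libraries, and these ranges overlapped. Without Fabp1 the genes had 6.12 to 8.00 counts per 100 hepatocyte marker counts in CAPZ_KO libraries and 4.11 to 5.34 in WT libraries, and these ranges did not overlap. When Alb, the most abundant marker, was left out of the denominator as well, the ranges were 13.3 to 17.2 in CAPZ_KO and 11.8 to 17.9 in WT, and they overlapped.

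Many markers of other liver cells rose in the same comparison, with 6 of 9 cholangiocyte, 6 of 9 Kupffer cell, 8 of 9 monocyte-derived macrophage and 9 of 10 stellate cell and fibroblast markers called higher and none called lower. Of all genes tested, 22.4% were called higher and 19.0% lower. The cholangiocyte markers summed to 388 to 1134 CPM in CAPZ_KO and 43.6 to 81.2 CPM in WT. The Kupffer cell markers summed to 1690 to 4337 CPM in CAPZ_KO and 795 to 1867 CPM in WT, and these ranges overlapped. The stellate cell and fibroblast markers summed to 897 to 1395 CPM in CAPZ_KO and 368 to 443 CPM in WT. For 9 markers of monocyte-derived macrophages the sums were 125 to 148 CPM in CAPZ_KO and 20.4 to 51.3 CPM in WT. The 9 sinusoidal endothelial markers summed to 382 to 588 CPM in CAPZ_KO and 363 to 554 CPM in WT, and 1 of the 9 rose. Of 5 neutrophil markers 2 rose, and of the T and NK cell and B cell markers tested 0 of 8 and 0 of 4 were called in either direction. The 6 adipocyte markers summed to at most 2.79 CPM in CAPZ_KO and 3.97 CPM in WT, with Plin1 at 0 in every library and Adipoq and Retn at 0 in every WT library. Cd36 is also made by macrophages and endothelial cells, and the part of these cells in its level was not tested.

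The wider pathway was taken from lists of genes that are not among the 28. With TMM, more genes fell than rose in every list except the other PPARα targets, though often not in most genes of a list. Of all genes tested, 19.0% fell and 22.4% rose. With library sizes alone, more rose than fell in the lists of entry and activation, malonyl-CoA control, triglyceride release and PPARα targets. The same held for the reference lists of the citric acid cycle and of mitochondrial import and maintenance. With library sizes alone the 11 lists held 33 genes lower and 47 higher, against 79 and 14 with TMM. Of the genes named below Phb2 alone then turned its sign. Slc25a29, Acot1, Abcd2, Mlycd, Prkaa2, Acaca, Angptl4 and Pex11a did not pass the edgeR test with that scaling. Neither did Sdhb, Sdha, Sucla2, Tfam, Tomm70a, Opa1 and Phb2. The fold changes and p-values below are those with TMM unless stated. Of 8 other ketone body genes tested 4 fell and 1 rose. Bdh2, a cytosolic dehydrogenase, fell by 1.97 on the log2 scale, and Aacs, which activates acetoacetate in the cytosol, fell by 1.70 (edgeR adjusted p = 8.72e-05 and 0.00488). Oxct1, the transferase by which other organs burn ketone bodies and which hepatocytes hardly make, rose by 1.16 (edgeR adjusted p = 0.00211) to 21.5 CPM in CAPZ_KO, against 9.56 CPM in WT.

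Of 7 other carnitine genes 3 fell and 1 rose. Bbox1, the last enzyme of carnitine synthesis, fell by 1.73, Slc25a29 by 1.22 and Aldh9a1, also of carnitine synthesis, by 1.14 on the log2 scale (edgeR adjusted p = 8.89e-05, 0.0147 and 0.000137), while Cpt1c, the brain isoform of the transferase, rose by 2.02 at a low level (2.01 CPM in CAPZ_KO and 0.476 CPM in WT, edgeR adjusted p = 0.00279). Of 18 further entry and activation genes 8 fell and 2 rose. The largest falls were those of Fabp5, another fatty acid-binding protein (−2.62), Slc27a5, which activates bile acids and very long-chain fatty acids (−2.15), and the medium-chain synthetases Acsm1 (−1.67) and Acsm3 (−1.64). Fabp7, the brain fatty acid-binding protein, and Acbd3, an acyl-CoA-binding protein of the Golgi, rose by 2.03 and 0.60. Of 16 further dehydrogenases and matrix enzymes 12 fell and 2 rose, with Acot1 (−1.72), Gcdh (−1.51), Acadsb (−1.34) and Pcca (−1.23) lowest and Acot9 (2.38) and Acad12 (0.75) higher. Acot1 overlapped between the groups and is a close copy of Acot2, so its reads are uncertain.

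Peroxisomal beta-oxidation, which shortens very long chains, fell in 11 of 15 genes and rose in 0. Abcd2 (−1.67) and Abcd3 (−1.48), transporters of the peroxisomal membrane, and the thiolase Acaa1b (−1.37) were among those that fell (adjusted p = 0.0198, 0.000203 and 0.00213 by edgeR). Among 8 genes of malonyl-CoA control 4 fell (50%) and 2 rose (25%), against 19.0% and 22.4% of all genes tested. Acacb, the mitochondrial acetyl-CoA carboxylase that makes the inhibitor of Cpt1a, fell by 2.04 on the log2 scale, and Mlycd, which degrades malonyl-CoA, by 0.90 (edgeR adjusted p = 0.00248 and 0.000513). Prkaa2 (−0.85) and Acaca (−0.77) fell as well, while the AMPK beta subunits Prkab2 and Prkab1 rose by 1.55 and 0.56. Release of fatty acids from stored triglyceride changed least by count, with 1 of 9 genes lower (11.1%, against 19.0% of all genes tested). That gene was Mgll, the monoglyceride lipase, at −1.79 (edgeR adjusted p = 0.000404).

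Of 19 regulators of fatty acid oxidation 12 fell and 1 rose. Ppara, the nuclear receptor for fatty acids, held 48.8, 81.5, 81.0 and 128 CPM in CAPZ_KO libraries, against 238, 260.5, 388 and 507 CPM in WT libraries. The groups did not overlap, and Ppara fell by 2.04 ± 0.325 on the log2 scale (SE, with adjusted p = 0.000919 by edgeR). Esrrg, an estrogen-related receptor, fell by 2.87, Lpin1, a phosphatase and coactivator, by 2.75 and Klf15, a transcription factor of fasting, by 1.73 (edgeR adjusted p = 0.00813, 0.00188 and 0.00204). Pparg, the receptor of fat storage, rose by 0.78 with overlapping groups (edgeR adjusted p = 0.0493). Other genes known as PPARα targets were divided, with 4 of 14 lower (28.6%) and 5 higher (35.7%), against 19.0% and 22.4% of all genes tested. The microsomal fatty acid hydroxylases Cyp4a14 and Cyp4a10 fell, at log2 fold changes of −4.76 and −4.37 (adjusted p = 0.00807 and 0.00476 by edgeR), and Angptl4 and Pex11a fell less, at −1.83 and −1.48. Cidec, a lipid droplet protein, Fgf21, a fasting hormone, Hilpda, a droplet protein that inhibits lipolysis, and Mgst3 rose by 3.57, 2.70, 1.47 and 1.35 on the log2 scale. The groups overlapped for Cyp4a14, Angptl4, Pex11a and Fgf21, and Cyp4a10 and Cyp4a14 have close copies with which they may share reads.

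**Figure D5:**
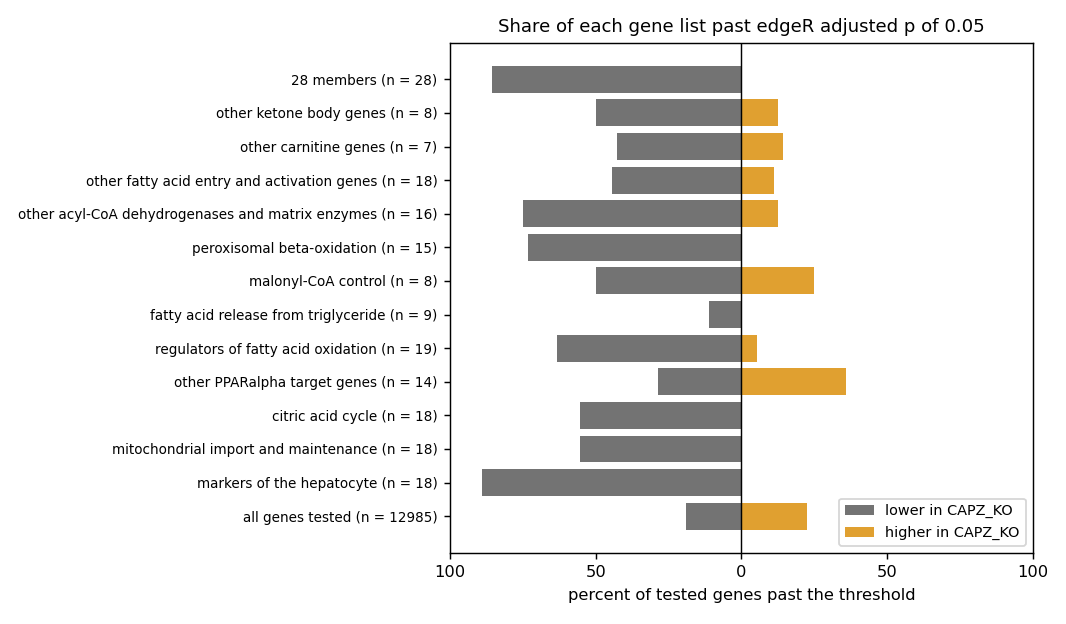
Share of the tested genes of each list that passed the edgeR adjusted p of 0.05, with genes lower in CAPZ_KO to the left and genes higher in CAPZ_KO to the right. With TMM the 28 genes reach 24 of 28 lower and 0 higher, close to the 16 of 18 of the hepatocyte markers, against 19.0% and 22.4% of all genes tested. Scaled to library size alone the count of the 28 is 11 lower and 1 higher, and that of the 18 hepatocyte markers is 12 lower and 0 higher.

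Mitochondrial genes outside fatty acid oxidation had smaller median falls, which turned to 0.029 and 0.26 with library sizes alone. With that scaling 1 citric acid cycle gene fell and 5 rose, and 0 import and maintenance genes fell and 8 rose. The counts that follow are with TMM. Of 18 citric acid cycle genes 10 fell and 0 rose, at a median of −0.59 on the log2 scale, led by Fh1 (−1.11), Sdhb (−0.99), Sdha (−0.91) and Sucla2 (−0.84). Of 18 genes of mitochondrial import and maintenance 10 fell and 0 rose, with a median of −0.37, led by Tfam (−0.81), Tomm70a (−0.76), Opa1 (−0.66) and Phb2 (−0.56, and 0.07 with library sizes alone). The medians beside these are −0.95 for the 28 fatty acid oxidation genes and −1.51 for the hepatocyte markers, and the differences between lists were not tested.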

How the data were processed

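Poly(A) RNA of perfused mouse liver was sequenced in 8 stranded libraries, per the labels' protocols. The deposited table holds raw counts of reads for each gene symbol and library. The submitters' processing notes name mm10, STAR 2.5.3a, featureCounts, edgeR, R 3.3.1 and bcl2fastq, with no role or order. The annotation, the strand setting and how multi-mapping reads were treated are not given in the sources used, so overlapping or near-identical genes may share reads.

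Here counts were filtered by filterByExpr (minimum count 10, minimum total count 15), scaled by TMM and tested by the edgeR 4.0.16 quasi-likelihood test with robust dispersion (R 4.3.3), which was tested on simulated data. Few genes were changed in the simulation, as many up as down, so it did not test the choice of scaling. The common biological coefficient of variation was 24.9%. All p-values adjusted for genes are from edgeR over 12985 genes. Fold changes are CAPZ_KO over WT. Within-library ratios used counts plus 0.5 and exact permutation tests. Alternatives were other scalings and filters, DESeq2 1.42.0, limma-voom (limma 3.58.1), a threshold of 0.01, a non-robust dispersion, sex as a term, a replicate block and leaving out libraries. No library was counted as a duplicate, since any pair of the same group had a chi-square of at least 21.5 per degree of freedom.

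The 28 genes and the other lists were chosen with earlier results of these data known, and are described by counts without set tests. Of each list other than the 28 and the cell markers, up to 4 called genes per direction with the largest change are named, and a few genes are not reported here. Positions are from GENCODE vM21 on GRCm38 (mm10), in which all 28 genes were found. Exon length for levels per kilobase is from the same annotation and covers all annotated exons of a gene, each base counted once. Promoter sequences are from RefSeq on GRCm38.p6 and covered 25 of the 28 genes.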

Additional observations from a re-analysis of the deposited data

Results flagged for a closer look

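In 7 of 58 sets of 4 values, 1 value lay far from the other 3 by Dixon's 95% criterion for a single outlying value. Each set held the levels of 1 gene in the 4 libraries of 1 group. Chance meets this criterion in about 1 in 20 independent sets. Genes of the same libraries can vary together, so the sets are not independent and 7 of 58 cannot be set against that rate. In CAPZ_KO replicate 4, the female library of its group, Acad11 stood at 248 CPM, Hadha at 232 CPM and Etfdh at 184 CPM, above 3 male libraries that lay close together. In WT replicate 4, the female library of its group, Cd36 stood at 263 CPM, Acadm at 448 CPM and Hadh at 615 CPM, again above the other 3. Etfb stood at 569 CPM in WT replicate 1, a male library, against 332 to 367 CPM in the rest of its group. So 6 of the 7 values belong to the 2 libraries with Xist reads, and whether sex, the single animal or its library sets them apart cannot be told apart.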

How the results depend on the processing

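Across 20 alternatives the count of the 28 genes that fell stayed at 21 to 26, except with library sizes alone, where 11 fell and 1 rose. That scaling also moved the genes of the 11 other lists to 33 lower and 47 higher, against 79 and 14, and raised the share of higher calls among all called genes to 91.6%, against 54.1% with TMM. It turned Acsl5, Acadm and Acad10 to log2 fold changes of 0.081, 0.11 and 0.025, with edgeR adjusted p of 0.728, 0.619 and 0.941. Relative to the median of all genes, the median of the 28 lay at −0.87 to −1.02 in every setting run. Between scalings this distance could hardly move, since a scaling shifts all genes nearly alike. Among the 28, 0 genes rose in the fit reported, 1 with limma-voom, 1 with sex as a term, 2 with the replicate block, 2 without the libraries with Xist, and 0 to 2 when 1 library was left out, the 2 being Cd36 (2.18, edgeR adjusted p = 0.000149) and Acot2 (1.67, 0.0212) without WT replicate 4. With the replicate block 26 fell. Same-numbered libraries deviated together with correlations of 0.0148 to 0.300. These were not compared with differently numbered libraries, so they do not settle whether the numbers pair the animals. The fit reported did not pair them. The sign-flip test of the ratios with the replicate block gave no p under 0.125, the smallest 4 pairs allow. Acsl5 lost its call without CAPZ_KO replicate 2 or 4 or WT replicate 1 or 3. Of the 24 genes that fell, 11 passed in all 20 alternatives. The causes were not tested. With 4 libraries per group, of which 1 is female, small changes such as those of Acadm and Acad10 and any difference between the sexes are at the limit of what these counts show.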
